A study of Mus musculus with 6 samples.

Results

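The miR-34 and miR-449 family was measured in small RNA-seq libraries of whole brain from mouse embryos at E15.5. The 8 arms described here, mmu-miR-34a-5p, mmu-miR-34a-3p, mmu-miR-34b-5p, mmu-miR-34b-3p, mmu-miR-34c-5p, mmu-miR-34c-3p, mmu-miR-449a-5p and mmu-miR-449c-5p (mmu, for mouse, is left out below), were taken by name from the 1915 mature miRNAs listed in each library. An arm is the 5p or the 3p side of a miRNA hairpin, either of which can be cut out as the mature miRNA. The embryos were wild-type C57BL/6 mice, sexed by the presence or absence of testicular cords, and 3 female and 3 male libraries were sequenced. Each library pooled the RNA of 2 to 3 embryos, so the replicates are pools and not single animals, and no treatment or transgene was used.

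These miRNAs come from 3 loci and, through a shared seed, can bind the same sites in target mRNAs. They are best known from multiciliated cells, where they act redundantly in the making of motile cilia and lower the level of Cp110, a protein that caps centrioles. In the brain, multiciliated cells are found in the choroid plexus and, later in life, in the ependyma that lines the ventricles. miR-34a, which is transcribed from its own locus, is also known as a direct target of p53 and is made in many cell types, including neurons.

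Because the seed is what joins the family, the mature sequences are given from the RefSeq annotation of GRCm38.p6, 5′ to 3′, with bases 2 to 8 in capitals. Of the 8 arms, 7 were matched, all but miR-34c-5p.
miR-34a-5p: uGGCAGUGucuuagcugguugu
miR-34b-5p: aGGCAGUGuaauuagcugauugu
miR-449a-5p: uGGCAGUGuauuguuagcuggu
miR-449c-5p: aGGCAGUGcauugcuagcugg
miR-34b-3p: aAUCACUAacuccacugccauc
miR-34c-3p: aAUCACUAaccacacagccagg
miR-34a-3p: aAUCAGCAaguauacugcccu
The 5p arms shown share the seed GGCAGUG, and no other miRNA among the 1679 mature names in that annotation has it. The 3p arms of miR-34b and miR-34c share a different seed, AUCACUA, and miR-34a-3p has another, AUCAGCA. The seed of the 5p arms also occurs once in the Mir34c hairpin, starting at base 14, and is in capitals there. The hairpin is shown because it gives miR-34c-5p, the arm with the smallest p in the comparison of the sexes.
Mir34c hairpin: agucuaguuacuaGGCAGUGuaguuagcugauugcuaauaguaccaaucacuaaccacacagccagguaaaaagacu

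The arms differ outside the seed, which is what lets reads be assigned to them. miR-34a-5p and miR-449a-5p are equal over their first 9 bases and have an edit distance of 6. The closest match lies between miR-34b-5p and the Mir34c hairpin, which holds a stretch that differs from it only by the substitutions A11G and U23C, with the base of miR-34b-5p first and positions counted from its 5′ end. Over the first 22 bases the difference is 1 base. A read of miR-34b-5p without its last base is therefore 1 mismatch away from the other hairpin, and its small counts are uncertain for that reason. miR-449c-5p differs from its nearest stretch in the Mir449a hairpin by 3 bases.

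In mm9, the build to which the reads were mapped, Mir34a lies on chromosome 4 from 149442563 to 149442664 on the forward strand, and GENCODE vM1 has no other gene over it. Mir34c lies on chromosome 9 from 50911139 to 50911215 and Mir34b from 50911667 to 50911750, both on the reverse strand, 451 bases apart and outside other annotated genes. The nearest protein-coding gene, 4833427G06Rik, starts 956 bases downstream of Mir34c on the same strand. Mir449c, from 113826191 to 113826299, and Mir449a, from 113827742 to 113827832, lie on the forward strand of chromosome 13 in an intron of Cdc20b, a gene that is itself switched on in multiciliated cells. Mir449b lies 35 bases upstream of Mir449a in the same intron. The 5 hairpins with a RefSeq entry had the same sequence in mm9.

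The libraries held 14802675 to 59362011 reads on miRNAs, and levels are given as CPM, the reads of an arm in every 1000000 reads of the library total. The values of each sex are listed in the order of its libraries 1, 2 and 3. Female library 2 stood apart, with the highest total but 660 miRNAs detected, against 790 to 915 in the other 5, and a median of 1846.5 reads over its detected miRNAs, against 352 at most in the others. Values without it are given for the results that turned direction or passed the threshold when it was left out. The brain label was checked against 8 miRNAs of neural cells, all of which were detected in every library, with a summed level of 230195 to 273868 CPM in females and 184193 to 212732 CPM in males. Single miRNAs were compared between the sexes by the quasi-likelihood test of edgeR, adjusted after Benjamini and Hochberg, and 5 of these 8 were higher in females, where 5.27% of the 1120 miRNAs tested were, with a median log2 fold change of -0.90.

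The family took a small share of the brain miRNAs, and most of it came from 2 arms. Summed over the 8 arms, the level was 252 ± 54.5 CPM (SD, n = 3) in the female libraries and 230 ± 12.3 CPM (SD, n = 3) in the male ones, with overlap between the sexes. Averaged over the 6 libraries, miR-34c-5p had 93.7 CPM and miR-449a-5p 92.7 CPM, which placed them at ranks 252 and 253 of 1915 miRNAs. They were followed by miR-34b-3p with 29.1 CPM, miR-34a-5p with 19.3 CPM and miR-34c-3p with 4.61 CPM. The last 3 were miR-449c-5p with 1.05 CPM, miR-34b-5p with 0.441 CPM and miR-34a-3p, which had no read in any library. In this order, miR-449a-5p was above miR-34b-3p and miR-34a-5p above miR-34c-3p in 6 of 6 libraries, whereas miR-34b-3p was above miR-34a-5p in 5, miR-34c-3p above miR-449c-5p in 5 and miR-449c-5p above miR-34b-5p in 4. miR-34c-5p was above miR-449a-5p in 3 libraries, so these neighbours cannot be ranked.

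**Figure D1:**
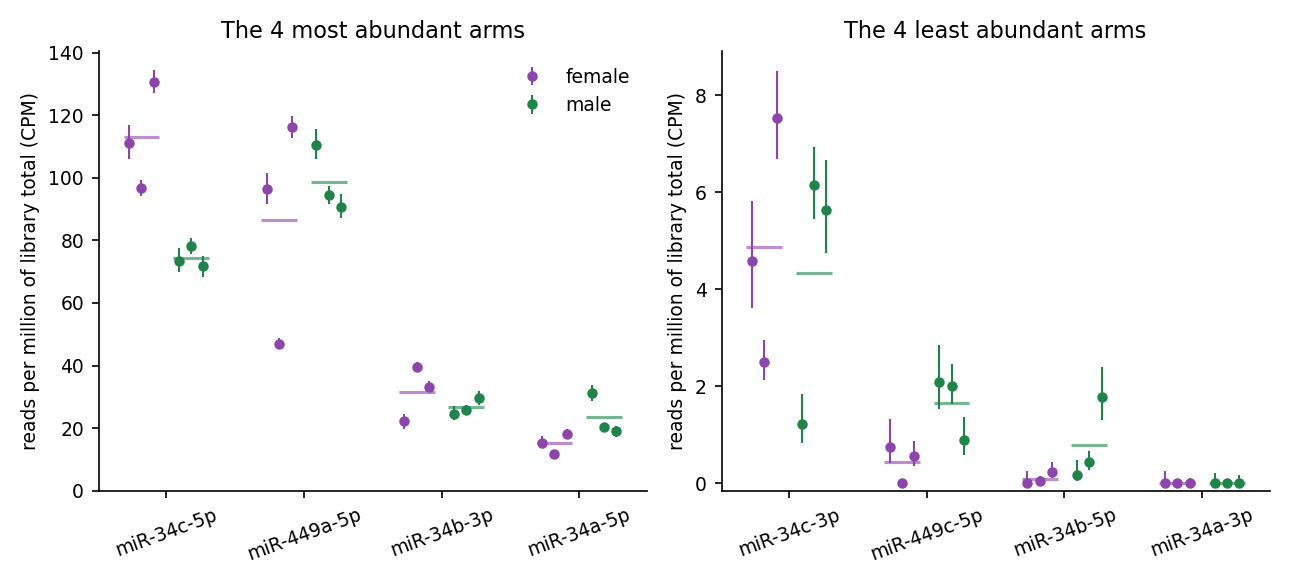
Level of each arm in each library, in CPM of the library total, with the 4 most abundant arms on the left and the 4 least abundant on the right. Points are libraries in the order 1 to 3, bars the 95% Wilson interval of counting error and lines the mean of each sex. The female points of miR-34c-5p, from 96.8 to 131 CPM, lie above the male points, from 71.7 to 78.1 CPM.

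miR-34c-5p, the leading arm of the Mir34b and Mir34c locus, was the one member whose levels in CPM lay higher in each female than in each male library. It was measured at 111, 96.8 and 131 CPM in the females and at 73.5, 78.1 and 71.7 CPM in the males. The sexes did not overlap, and the males lay closer together than the females. The log2 fold change, male over female, was -0.72 (standard error 0.25, 95% interval -1.23 to -0.21) and edgeR's adjusted p was 0.0815, which misses the threshold of 0.05. Its p without adjustment was 0.00779, and 18.4% of the 1120 miRNAs tested had such a p below 0.05. In whole-brain RNA, fewer cells that make a miRNA and less of it per cell cannot be told apart.

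None of the 8 arms passed that threshold, where 95 of the 1120 miRNAs tested did, or 8.48%, and 5.27% were called higher in females. A minimum of 10 reads summed over the libraries kept 7 of the 8 arms, all but miR-34a-3p. Of these 7, 1 had a p below 0.05 without adjustment in edgeR, and DESeq2 called 1, again miR-34c-5p. The median log2 fold change of the 7 was 0.08, beside -0.02 over all miRNAs tested. miR-34c-5p was lower in males under each of the 14 alternatives tried, at log2 fold changes between -0.82 and -0.60, with an adjusted p of 0.00535 to 0.350 that passed the threshold in 5 of them. Without female library 2, it was 0.00795 (log2 fold change -0.77), where 10.5% of miRNAs were called higher in females. It was 0.0216 with DESeq2 (background 6.52%), 0.00535 with edgeR and 1 RUVr factor (8.66%), 0.00742 with DESeq2 and 1 RUVr factor (8.93%), and 0.0324 when each library had to hold 10 reads of a miRNA (12.4%). RUVr is the correction for unwanted variation named in the study's methods, with a number of factors that the methods do not state. The factor found here was 0.95 for female library 2 and -0.12 to 0.26 for the others. The RUVr fits and the fit without that library are thus not separate support for the call.

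**Figure D2:**
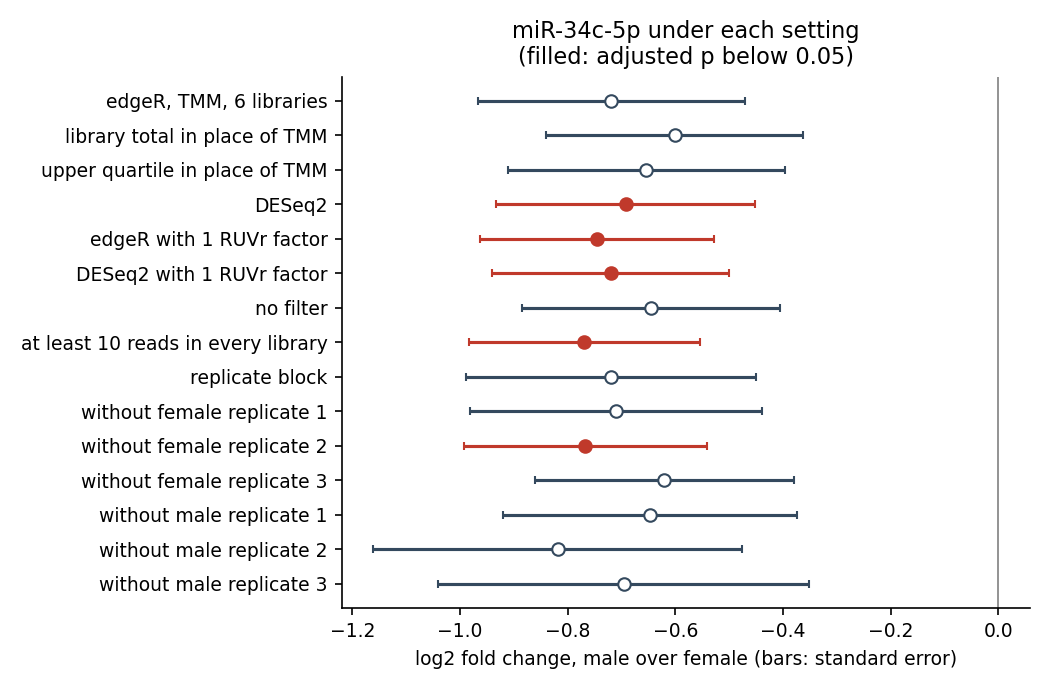
Log2 fold change of miR-34c-5p, male over female, under the reported fit and the 14 alternatives, with its standard error. Filled points have an adjusted p below 0.05. All points lie between -0.82 and -0.60, and 5 are filled.

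The other arm of the same hairpin, miR-34c-3p, was scattered. It had 4.59, 2.51 and 7.54 CPM in the females and 1.23, 6.15 and 5.63 CPM in the males. Male library 1, with 23 reads, was the lowest and female library 3 the highest, and the sexes overlapped. The log2 fold change was -0.23 (adjusted p = 0.947 in edgeR's test, standard error 1.01), and it turned to 0.23 without male library 1 and to 0.22 without female library 3. There were 12.7 to 59.7 reads of the 5p arm for each read of the 3p arm. The log2 of that ratio was 4.66 ± 0.58 (SD, n = 3) in the female libraries and 4.40 ± 1.27 (SD, n = 3) in the male ones (two-sided exact permutation test, p = 0.8).

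The neighbouring hairpin, Mir34b, gave mostly its 3p arm. miR-34b-3p was measured at 22.1, 39.6 and 33.2 CPM in the females and at 24.6, 25.8 and 29.5 CPM in the males. The female libraries held both the lowest and the highest value, so the sexes overlapped. Its log2 fold change was -0.39 (standard error 0.37, 95% interval -1.16 to 0.38, adjusted p = 0.595 in edgeR's test). miR-34b-5p had 0, 3 and 8 reads in the females and 3, 19 and 42 reads in the males, or 0 to 1.78 CPM. Male library 3 was the highest, at 1.78 CPM (95% Wilson interval 1.31 to 2.40 CPM), and the other libraries overlapped between the sexes. By a floor of 3 reads, 0 reads in female library 1 allow up to 0.203 CPM. The fitted log2 fold change was 2.95, with a 95% interval of -4.07 to 9.96 (adjusted p = 0.695 in edgeR's test).

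The neighbouring hairpins showed opposite arm preferences in the same libraries. Mir34c gave more 5p than 3p reads in 6 of 6 libraries, and Mir34b gave more 3p than 5p reads in 6 of 6. The preference of Mir34b rests on the small counts of miR-34b-5p, which its near match to the Mir34c hairpin makes uncertain. The log2 ratio of miR-34b-5p to miR-34b-3p, with 0.5 read added to each count, was -8.63 ± 1.30 (SD, n = 3) in the female libraries and -5.65 ± 1.51 (SD, n = 3) in the male ones. With that addition the sexes did not overlap, with little to spare, at -7.13 in female library 3 against -7.04 in male library 1. As plain ratios of reads they overlapped, at 0.00672 in female library 3 and 0.00652 in male library 1. The exact permutation test gave p = 0.1, the smallest that 3 libraries against 3 allow, and p = 0.2 with 0.1 read added in place of 0.5. The balance of the leading arms of both hairpins, miR-34c-5p to miR-34b-3p, was between 2.43 and 5.04 in reads, and its log2 value was 1.87 ± 0.53 (SD, n = 3) in the female libraries and 1.49 ± 0.18 (SD, n = 3) in the male ones (exact permutation test, p = 0.3).

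miR-34a-5p was present in every library at a lower level. It had 15.3, 11.7 and 18.1 CPM in the females and 31.2, 20.4 and 19.0 CPM in the males. The lowest male library was just above the highest female library on this scale, and the sexes overlapped once the counts were scaled by TMM, the normalization for library composition used in the test. The log2 fold change was 0.50 (standard error 0.43, 95% interval -0.39 to 1.40, adjusted p = 0.524 in edgeR's test), and it was 0.33 without male library 1, the highest. Its 3p arm, miR-34a-3p, had 0 reads in all 6 libraries. By a floor of 3 reads, this allows up to 0.0505 CPM in the deepest library and 0.203 CPM in the shallowest. The upper limits of the 95% Wilson interval there are 0.0647 and 0.260 CPM. The deepest is female library 2, which detected the fewest miRNAs, so its bound may be too low. Set against a floor of 3 reads per library, miR-34a-5p was at least 75.7-fold higher than miR-34a-3p in female library 1 and at least 298-fold higher in male library 2.

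At the Mir449 locus, miR-449a-5p gave nearly all the reads. It was measured at 96.6, 47.0 and 116 CPM in the females and at 111, 94.6 and 90.9 CPM in the males. Female library 2 was the lowest, by itself, and the other 5 libraries overlapped. The log2 fold change was 0.08 (standard error 0.28, 95% interval -0.50 to 0.66, adjusted p = 0.921 in edgeR's test), and it turned to -0.19 (adjusted p = 0.641) without female library 2.

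miR-449c-5p was sparse, with 11, 0 and 20 reads in the females and 39, 88 and 21 reads in the males. That is 0 to 0.743 CPM in females and 0.889 to 2.09 CPM in males, so the sexes did not overlap, but the Wilson intervals of female library 1 (0.415 to 1.33 CPM) and male library 3 (0.581 to 1.36 CPM) did. The fitted log2 fold change was 1.87 with a standard error of 2.37 (adjusted p = 0.732 in edgeR's test). Among the 7 arms tested, miR-34c-5p and miR-449c-5p were without overlap between the sexes in TMM-scaled levels, where 23.8% of all miRNAs tested were, and 11.9% were so with the females higher.

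**Figure D3:**
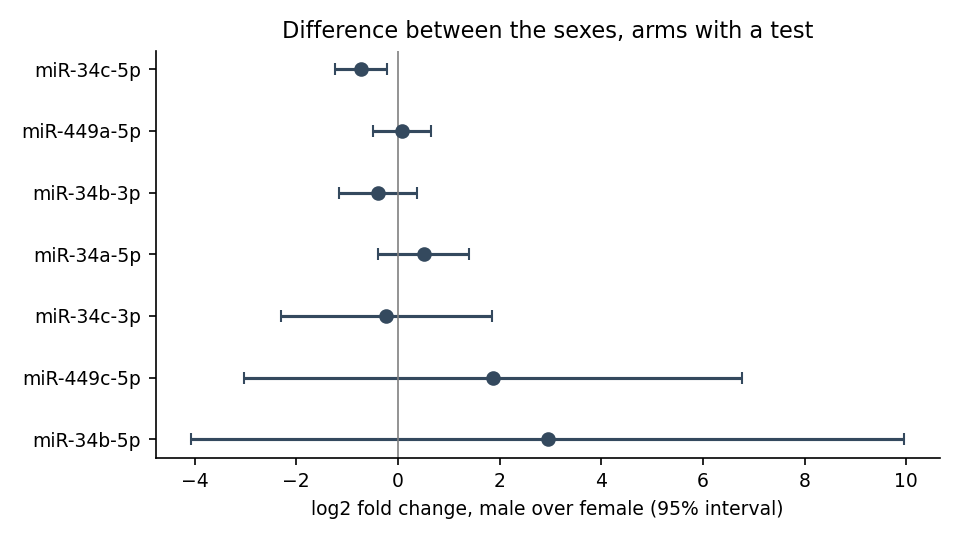
Log2 fold change, male over female, of the 7 arms with a test, in order of their mean level from the most abundant at the top, with 95% intervals. The interval of miR-34c-5p, from -1.23 to -0.21, is the only one that leaves out 0, and those of miR-449c-5p and miR-34b-5p span several log2 units.

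Other names of the Mir449 locus, which are not among the 8 arms, were looked at for comparison. miR-449b had 0 reads in all 6 libraries, and miR-449c-3p had 2 reads in female library 3, 21 in male library 1 and none elsewhere. miR-449a-3p had 12, 0 and 61 reads in the females and 83, 182 and 76 in the males, or 0 to 1.70 CPM against 3.22 to 4.44 CPM. Every male library was above every female library, with a fitted log2 fold change of 2.15 (adjusted p = 0.481 in edgeR's test, standard error 1.68). With DESeq2 and 1 RUVr factor, which called 10.4% of all miRNAs higher in males, the adjusted p was 0.0150, and over the alternatives with a value it ranged from 0.0150 to 0.767. The 5p arm of that hairpin, miR-449a-5p, overlapped between the sexes.

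The sexes overlapped in the sum of the family's 5p reads but not in the shares of its 3 leading arms. The 5 arms ending in 5p summed to 215 ± 55.7 CPM (SD, n = 3) in the female libraries and 199 ± 17.0 CPM (SD, n = 3) in the male ones. miR-34c-5p took 49.7%, 62.2% and 49.2% of them in the females and 33.8%, 40.0% and 38.9% in the males. miR-449a-5p took 43.1%, 30.2% and 43.7% in the females and 50.9%, 48.4% and 49.3% in the males. So miR-34c-5p was the leading 5p arm in each female library and miR-449a-5p in each male library. This order was noticed in the data and was not tested. miR-34a-5p took 6.82% to 7.55% in females and 10.3% to 14.3% in males. The shares are parts of a whole, so a lower share of miR-34c-5p raises those of the other arms. The lack of overlap in the 3 shares is therefore not 3 separate results, and in CPM miR-449a-5p overlapped between the sexes.

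**Figure D4:**
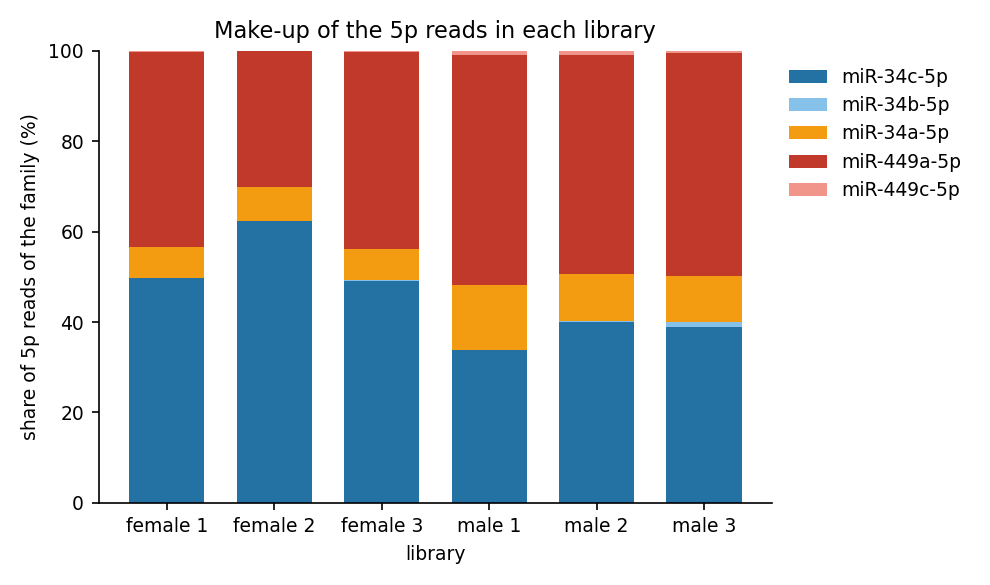
Share of each 5p arm in the family's 5p reads, in percent, for each library. miR-34c-5p leads in the 3 female libraries, at 49.2% to 62.2%, and miR-449a-5p in the 3 male libraries, at 48.4% to 50.9%.

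Ratios between arms do not depend on how the libraries are scaled. For each read of miR-34a-5p, there were 7.26, 8.25 and 7.21 reads of miR-34c-5p in the females and 2.36, 3.84 and 3.78 in the males. The sexes lay apart, with a log2 ratio of 2.92 ± 0.11 (SD, n = 3) in the female libraries and 1.70 ± 0.40 (SD, n = 3) in the male ones, a difference of -1.22 (male minus female). The two-sided exact permutation test gave p = 0.1, the smallest that this design allows, and 0.2 after Benjamini-Hochberg adjustment over the 4 ratios tested. Leaving out single libraries gave differences from -1.34 to -0.99. The ratio of miR-34c-5p to miR-449a-5p was 1.152, 2.06 and 1.12 in the females and 0.664, 0.826 and 0.789 in the males, and it was added after the data were seen and has no test.

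**Figure D5:**
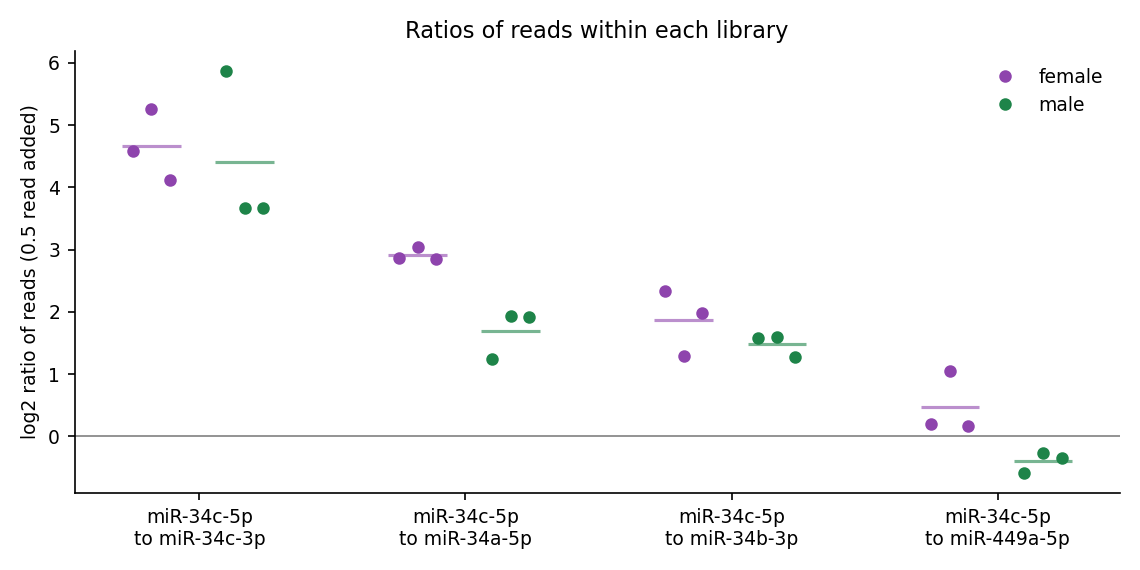
Log2 ratios of reads between arms within each library, with 0.5 read added to each count. Points are libraries in the order 1 to 3 and lines the mean of each sex. The ratio of miR-34c-5p to miR-34a-5p is 2.92 on average in females and 1.70 in males, and that of miR-34c-5p to miR-34c-3p overlaps between the sexes.

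Across the 6 libraries, members of 1 locus were correlated to different degrees. The Pearson correlation of log2 CPM was 0.24 between miR-34c-5p and miR-34b-3p, and 0.40 between the arms of Mir34c, and 0.23 and 0.46 without female library 2. Between miR-449a-5p and miR-449c-5p it was 0.87, with female library 2 at the bottom of both, and it turned to -0.13 without that library, so it rests on it. Some pairs from different loci reached similar values, with 0.84 between miR-34a-5p and miR-449c-5p (0.76 without that library) and 0.73 between miR-34a-5p and miR-449a-5p (0.38). Others were negative, with -0.80 between miR-34b-3p and miR-449c-5p (-0.44) and -0.52 between miR-34a-5p and miR-34c-5p (-0.60). The leave-out was added after the data were seen. These values describe 6 libraries that share the difference in sex and in depth. The coefficient of variation over the 6 libraries was 25.4% for miR-34c-5p, 26.4% for miR-449a-5p, 22.1% for miR-34b-3p and 34.1% for miR-34a-5p, beside a median of 33.1% over the 553 miRNAs whose mean reached 100 reads.

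Among the 552 others of those miRNAs, the profiles most like that of miR-34c-5p over the 6 libraries were those of miR-217-5p (Pearson r = 0.993), miR-374b-5p (0.991), miR-135b-5p (0.983), miR-340-5p (0.982) and miR-135a-5p (0.979). All 5 passed the threshold in edgeR's test and were lower in males, with log2 fold changes from -1.42 to -0.90. Of all miRNAs tested, 5.27% were called higher in females. The 5 were picked in these same libraries for their likeness to an arm lower in each male library. The likeness thus holds the difference between the sexes, and their direction is no separate result. For miR-34a-5p, the most alike were miR-134-5p (0.992), miR-431-3p (0.976), miR-181a-5p (0.974), miR-329-5p (0.914) and miR-503-5p (0.907), and none of the 5 passed the threshold. For miR-449a-5p, they were miR-676-5p (0.995), miR-148b-3p (0.994), miR-467d-5p (0.990), miR-107-3p (0.989) and miR-376a-3p (0.982), which did not pass it either. Without female library 2, the correlations of these 5 with miR-449a-5p were 0.805 to 0.970. They were 0.981 to 0.995 for the 5 of miR-34c-5p and 0.817 to 0.996 for those of miR-34a-5p. Over the 6 libraries, 46 of the 552 had a correlation above 0.9 with miR-34c-5p, 19 with miR-449a-5p and 6 with miR-34a-5p. The named 5 are thus not the only ones with a close profile.

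Lists of miRNAs of other cells were set beside the family. Of 14 choroid plexus miRNAs, which are miR-204, miR-211 and those in the introns of Htr2c, 13 were tested and 1 was called, miR-448-3p, with a log2 fold change of -0.96 (adjusted p = 0.00631 in edgeR's test). With 8.48% of all miRNAs tested called, and 5.27% called higher in females, 1 of 13 is near the background. miR-204-5p and miR-1298-5p, the most abundant of the list, had -0.27 and -0.33 and did not pass. The list was not uniform, since miR-211-5p and miR-448-5p, named after their values were seen, had 0.27 and 0.25. Neither passed, and miR-448-5p is the other arm of the hairpin that was called. The list summed to 2126 to 2318 CPM in females and 1882 to 2023 CPM in males, its median log2 fold change was -0.42, and miR-211-3p had no read. The summed level of the list, like the level of miR-34c-5p, was lower in each male than in each female library. The same held for the sum of the 8 miRNAs of neural cells given above. It held for the sum of the 8 p53-responsive miRNAs below, at 15154 to 26309 CPM in females and 11707 to 13855 CPM in males. On average, a single member made up most of each sum. These were miR-204-5p with 1288 CPM, miR-9-5p with 173324 CPM and miR-16-5p with 11110 CPM. Of them, miR-204-5p and miR-9-5p did not pass the threshold. The part of choroid plexus content in the result for miR-34c-5p was not tested.

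Epithelial and muscle miRNAs moved the other way. Of 14 miRNAs of epithelia, where miR-200 and miR-205 are the defining members, 12 were tested and 8 were called, all higher in males, where 3.21% of all miRNAs tested were. The most abundant, miR-205-5p, had a log2 fold change of 5.04, and miR-200c-5p and miR-429-5p had no read. Their summed level was 736 to 1556 CPM in females and 9278 to 9617 CPM in males, with a median log2 fold change of 2.91. Of 6 skeletal muscle miRNAs, all 5 that were tested were called higher in males, with sums of 391.6 to 1191 CPM and 5526 to 6154 CPM, a median of 2.78, and miR-208b-3p without a read. The family is known to be expressed in ciliated epithelia outside the brain as well, and the part of such tissue in the male levels of miR-34a-5p, miR-449c-5p and miR-449a-3p was not tested.

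Of 8 other miRNAs known to respond to p53, all were tested, 3 were called higher in females, where 5.27% of all miRNAs tested were, and none higher in males, where 3.21% were. Of its 3 most abundant members, miR-16-5p had a log2 fold change of -0.85 and miR-194-5p of -0.82, which passed, and miR-143-3p of -0.61, which did not. The third called, named after its values were seen, was miR-15a-5p with -1.21. The list was not uniform, since miR-145a-5p and miR-107-3p, also named after their values were seen, had 0.49 and 0.01. Neither passed. miR-34a-5p, at 0.50, did not pass. The median of the list was -0.74.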

How the data were processed

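The authors trimmed adaptors with cutadapt 1.15, mapped reads with Bowtie 1.2.1 to miRBase v.21 sequences and mm9, and quantified known miRNAs in the miRDeep2 workflow. They deposited the raw read count of each mature miRNA per library, without normalization. In R 4.3.3, miRNAs were kept from a sum of 10 reads upwards, and their counts were scaled by TMM and compared between the sexes with edgeR 4.0.16 (quasi-likelihood test, Benjamini-Hochberg adjustment over 1120 miRNAs). Alternatives were DESeq2 1.42.0, 1 RUVr factor (written out from edgeR's residuals), other scalings and filters, a replicate block and each library left out. The fits were tested on simulated data. CPM in the text use the library total, and Wilson intervals and floors (3 reads) cover counting error only, since no molecular identifiers are named. The standard error is the size of the log2 fold change over the square root of F.

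The members and the lists of choroid plexus, epithelium, skeletal muscle, brain and p53 miRNAs were chosen with earlier results of these data known. Named were the members, the other miR-449 names, at most 3 members per list by mean CPM (and those with no read), and the 5 miRNAs with the highest Pearson correlation (log2 CPM, prior count 2) with the leading 5p arm of each locus. Choroid plexus and p53 miRNAs outside these rules were named after their values were seen. p-values measure the spread between pools.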

Additional observations from a re-analysis of the deposited data

How the results depend on the processing

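The number of arms past the threshold was 0 in the reported fit and 1, miR-34c-5p, with DESeq2, with 1 RUVr factor in edgeR or in DESeq2, when each library had to hold 10 reads of a miRNA, and without female library 2. With each library left out in turn it ranged from 0 to 1. The RUVr factor was largest in female library 2, at 0.95, so the RUVr fits and the fit without that library are not separate checks. The cause was not tested. Library totals in place of TMM moved the median log2 fold change of all miRNAs from -0.02 to 0.11, and 1 RUVr factor in edgeR moved it to 0.22.

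Among the tested arms, directions turned for those far from the threshold. The log2 fold change of miR-34c-3p was 0.22 without female library 3 and 0.23 without male library 1 (range -0.63 to 0.23 over the libraries left out), and that of miR-449a-5p was -0.19 without female library 2 (range -0.19 to 0.34). The correlation of miR-449a-5p with miR-449c-5p was -0.13 without female library 2, an alternative added after the data were seen. The difference between the sexes in the log2 ratio of miR-34c-5p to miR-34c-3p, -0.26, ranged from -0.99 to 0.11 with each library left out and was 0.05 without female library 2 and 0.11 without male library 2 or 3. Those of miR-34c-5p to miR-34a-5p, miR-34c-5p to miR-34b-3p and miR-34b-5p to miR-34b-3p kept their sign under the 9 alternatives run on each, between -1.34 and -0.99, between -0.67 and -0.15, and between 2.18 and 3.76. The planned ratio of miR-34a-5p to miR-34a-3p was not run, since the 3p arm had no read.

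There was no sign that the replicate numbers pair the libraries. The correlation of same-numbered libraries' deviations from their group means was -0.05, -0.01 and 0.05. It was -0.07 to 0.07 for differently numbered ones. With so few libraries, these values cannot exclude a pairing. With a replicate block, miR-34c-5p had a log2 fold change of -0.72 (adjusted p = 0.110 in edgeR's test), 0 arms passed the threshold, and the log2 ratio of miR-34c-5p to miR-34a-5p differed by -1.22. At these depths, miR-34b-5p and miR-449c-5p, with 75 and 179 reads in all, have intervals too wide to show a difference of the size seen for miR-34c-5p.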
